A study of Mus musculus with 11 samples.

Results

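The MAP kinase phosphatases are the 10 dual-specificity phosphatases that remove phosphate from both the threonine and the tyrosine of an activated MAP kinase (Dusp1, Dusp2, Dusp4, Dusp5, Dusp6, Dusp7, Dusp8, Dusp9, Dusp10 and Dusp16). They were taken as a gene family from 22911 distinct named genes on the array, and the choice was made around Dusp10, which was selected on its NICD2 and GFP values for being lower with NICD2. Its NICD2 value against GFP is therefore given as a description, without a test. All 10 genes had a probe, Dusp8 had a pair of them, and 8 genes reached the tests. The probes of Dusp5 and Dusp9 were not well above background on any array.

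The livers came from wild-type C57Bl6/J male mice that were 8 weeks old at injection, 5 days after an intraperitoneal dose of adeno-associated virus capsid 8 (AAV8). The GFP group (n = 3) received 6e+11 viral genomes of a GFP vector per mouse. The NICD1 and NICD2 groups (n = 3 each) were given 3e+11 viral genomes carrying the intracellular domain of Notch1 or Notch2, made up with 3e+11 of GFP virus, and the NICD1&2 group (n = 2) had 3e+11 of both NICD viruses but none for GFP. Every mouse thus received the same total dose of virus, whereas the GFP dose differed. The vectors were driven by the CMV promoter, which is not restricted to hepatocytes, and RNA came from whole liver, in which fewer cells of a type and less RNA per cell cannot be told apart.

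MAP kinase cascades relay signals through ERK, JNK and p38, and the phosphatases switch these kinases off. The family falls into inducible nuclear enzymes (Dusp1, Dusp2, Dusp4, Dusp5), cytoplasmic enzymes that prefer ERK (Dusp6, Dusp7, Dusp9) and enzymes that prefer JNK and p38 (Dusp8, Dusp10, Dusp16). Several are themselves transcribed when MAP kinases are active, which makes them feedback regulators, and in liver the family is known for its part in stress responses and metabolism.

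The 11 single-colour arrays lay on 2 slides, and both slides held every group. Slide 1 held 2 GFP, 1 NICD1, 2 NICD2 and 1 NICD1&2 arrays, and slide 2 held 1, 2, 1 and 1. A difference within a slide thus rests on 1 or 2 arrays per group. Between 57.0% and 62.0% of spots were well above background and no spot was saturated, while GFP 1 correlated least with the others (median r 0.981). Values are log2 signal relative to the 75th percentile of each array, so a level below 0 lies under that percentile. The probes for Notch1 and Notch2 overlapped between GFP and the group that received the matching vector (Notch1 ranged from 0.30 to 0.69 in GFP and from 0.56 to 0.95 in NICD1, and Notch2 from 1.66 to 1.86 in GFP and from 1.85 to 2.06 in NICD2). In NICD1&2, which received both, Notch1 averaged 0.71, with the lower array at 0.32, and Notch2 ranged from 1.74 to 1.77, and in NICD1 Notch2 ranged from 1.97 to 2.10, above every GFP array. Whether these probes lie within the delivered sequence is not given in the sources used here. Of 7 Notch targets 6 were tested, and 1 passed the threshold of the study (an unadjusted P below 0.15 with a fold above 1.8) in NICD1, 2 in NICD2 and 3 in NICD1&2, all higher, where 1.73%, 1.32% and 4.78% of all probes passed as higher. Nrarp, a feedback inhibitor of Notch, was not well above background in any GFP liver and was at least 1.29-fold higher in NICD1, 4.65-fold in NICD2 and 7.07-fold in NICD1&2 (adjusted p = 0.839, 0.104 and 0.0723 by limma), and it reached the tests only through these groups. Hes1, a repressor induced by Notch, differed from GFP by -0.03 in NICD1, 1.64 in NICD2 and 1.36 in NICD1&2 (adjusted p = 0.993, 0.421 and 0.282), and Heyl, of the related Hey repressors, by -0.22, -0.43 and -0.64 (adjusted p = 0.927, 0.823 and 0.320). Sox9, a transcription factor of bile duct cells, differed by 0.23, 0.84 and 1.16 (adjusted p = 0.939, 0.581 and 0.198) and passed the threshold in NICD1&2. All 8 hepatocyte markers were detected, with a summed linear level between 3596 and 4782 times the 75th percentile. The summed level of 5 bile duct markers was 6.61 to 9.65 in GFP, 22.2 to 30.3 in NICD1, 22.1 to 29.9 in NICD2 and 31.5 to 39.7 in NICD1&2, with no overlap between GFP and the other groups. Spp1 led this sum, above GFP by 1.71 in NICD1, 1.81 in NICD2 and 2.23 in NICD1&2 (log2, adjusted p = 0.0988, 0.0276 and 0.0114 by limma), whereas Krt19, a keratin of duct cells, was above GFP by 0.07, 0.09 and 0.29 (adjusted p = 0.981, 0.989 and 0.572). The list median was 0.44, 0.48 and 0.63.

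Dusp10 prefers JNK and p38 over ERK. Because the report turns on it, the 250 bases before its annotated start are printed (GRCm38.p6 chr1:184034131-184034380, plus strand, from RefSeq), with the match to the N-box in capitals.
Dusp10: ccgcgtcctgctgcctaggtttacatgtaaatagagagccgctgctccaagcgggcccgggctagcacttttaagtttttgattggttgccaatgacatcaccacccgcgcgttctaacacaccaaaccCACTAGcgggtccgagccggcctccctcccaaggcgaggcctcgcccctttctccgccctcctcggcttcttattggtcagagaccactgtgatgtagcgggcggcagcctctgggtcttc
The N-box (CACNAG, searched on both strands) is a sequence bound by Hes repressors, and its single match lies 121 bases before the start. The same letters occur in 36.7% of all 32536 promoter windows of that length. The core sequence of RBPJ (TGGGAA), the DNA-binding partner of the Notch intracellular domain, is not in this window, and occurs in 21.6% of all windows. Among the 8 members with a window only Dusp2 held it, 207 bases before its start.

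Dusp10 stood at -2.87, -3.08 and -2.92 in the GFP livers and at -3.43, -3.86 and -3.78 in the NICD1 livers. It stood at -4.33, -4.72 and -4.44 in the NICD2 livers and at -4.20 and -4.70 in the NICD1&2 livers. The 4 groups formed 3 tiers without overlap between them, with GFP highest, NICD1 in the middle, and NICD2 and NICD1&2 together at the bottom. That NICD2 lay below GFP follows from the choice of the gene. Against GFP, groups did not overlap for 12.4% of all probes in NICD1, 13.3% in NICD2 and 34.5% in NICD1&2. The probe was well above background on all 6 arrays of the upper tiers and on none of the 5 arrays of the lowest tier, so the lower levels are not exact.

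The value that chose the gene was a mean of -4.50 in NICD2 against -2.95 in GFP, 2.91-fold lower. For Dusp10, a fold given as at least is relative to the lowest signal well above background on each array. On NICD2 1, NICD2 3 and NICD1&2 1 its own signal exceeded that lowest signal without being flagged, so these folds are not strict minima. The probe reached the tests through the GFP and NICD1 groups, the ones in which it was above background. In NICD1&2 the mean was -4.45 and Dusp10 was at least 2.40-fold lower than in GFP (adjusted p = 0.043 by limma), which rests on the same GFP arrays as the choice and is no independent evidence of the direction. This adjusted p ranged from 0.0271 to 0.318 over the alternatives and missed 0.05 in 14 of them. Leaving out GFP 1, GFP 2, GFP 3, NICD1 2, NICD1 3, NICD2 1, NICD2 2, NICD2 3 or NICD1&2 2 each ended the call, with adjusted p between 0.0639 and 0.279. With normexp background correction, which adds an offset of 50 to the signal, and quantile normalization together, the fitted differences were -0.29 in NICD2 and -0.36 in NICD1&2. In that setting Dusp10 differed by -0.17 in NICD1 against GFP, -0.19 in NICD1&2 against NICD1 and 0.12 in NICD1 against NICD2.

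The means of NICD1&2 and NICD1, and the permutation test between them, use no array of the contrast that chose Dusp10. The limma interval and adjusted p do use those arrays, because the fit pooled the spread within all groups, GFP and NICD2 included. Both NICD1&2 arrays lay under all 3 NICD1 arrays, at least 1.44-fold lower (fitted log2 difference -0.76, 95% interval -1.21 to -0.32), in a comparison where 30.7% of all probes had groups that did not overlap. The difference did not pass adjustment over all probes (adjusted p = 0.341 by limma), and the exact two-sided permutation test gave p = 0.1, the smallest that 2 against 3 arrays allow. The signal difference was -0.77 on slide 1 and -0.89 on slide 2, with NICD1&2 below background on both, so its size is not exact. In NICD1 itself Dusp10 was lower than in GFP on every array, by 0.74 on the log2 scale (difference -0.74, 95% interval -1.13 to -0.34, adjusted p = 0.685 by limma), which is 1.66-fold and under the threshold of the study. This value too rests on the GFP arrays of the choice. Within slides this difference was -0.45 and -0.90. The NICD1 arrays all lay above the NICD2 arrays, at least 1.75-fold (adjusted p = 0.859 by limma), which shares the NICD2 arrays with the choice. Groups did not overlap for 9.26% of all probes there. Between NICD1&2 and NICD2, both below background, the difference was 0.04 with an interval from -0.40 to 0.49, and no fold is given.

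The summed level of T and B lymphocyte markers, cells that can also express Dusp10, was 16.4 to 18.9 in GFP, 14.0 to 17.2 in NICD1, 16.5 to 18.4 in NICD2 and 19.0 to 21.6 in NICD1&2, and Cd4, its brightest probe, was above GFP by 0.05 in NICD2. By gene, 9 of these 10 markers were lower than in GFP in NICD1 (median difference -0.24), 9 in NICD2 (-0.20) and 6 in NICD1&2 (-0.02), where 47.1%, 45.8% and 35% of all probes were lower. The sum for Kupffer cell and macrophage markers ran from 93.0 to 136.9 in GFP, 92.7 to 104.4 in NICD1, 96.0 to 108.7 in NICD2 and 119.3 to 133.3 in NICD1&2, and 8, 7 and 5 of its 8 genes were lower than in GFP (medians -0.28, -0.21 and -0.02). Of both lists, 1 gene each in NICD1 (Cd79a and Marco) and none in the other groups passed the threshold of the study, both lower, where 0.494% of all probes passed as lower in NICD1, 0.66% in NICD2 and 1.44% in NICD1&2, and 0 passed adjustment. The part of these markers and of the bile duct markers in the Dusp10 values was not tested.

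**Figure D1:**
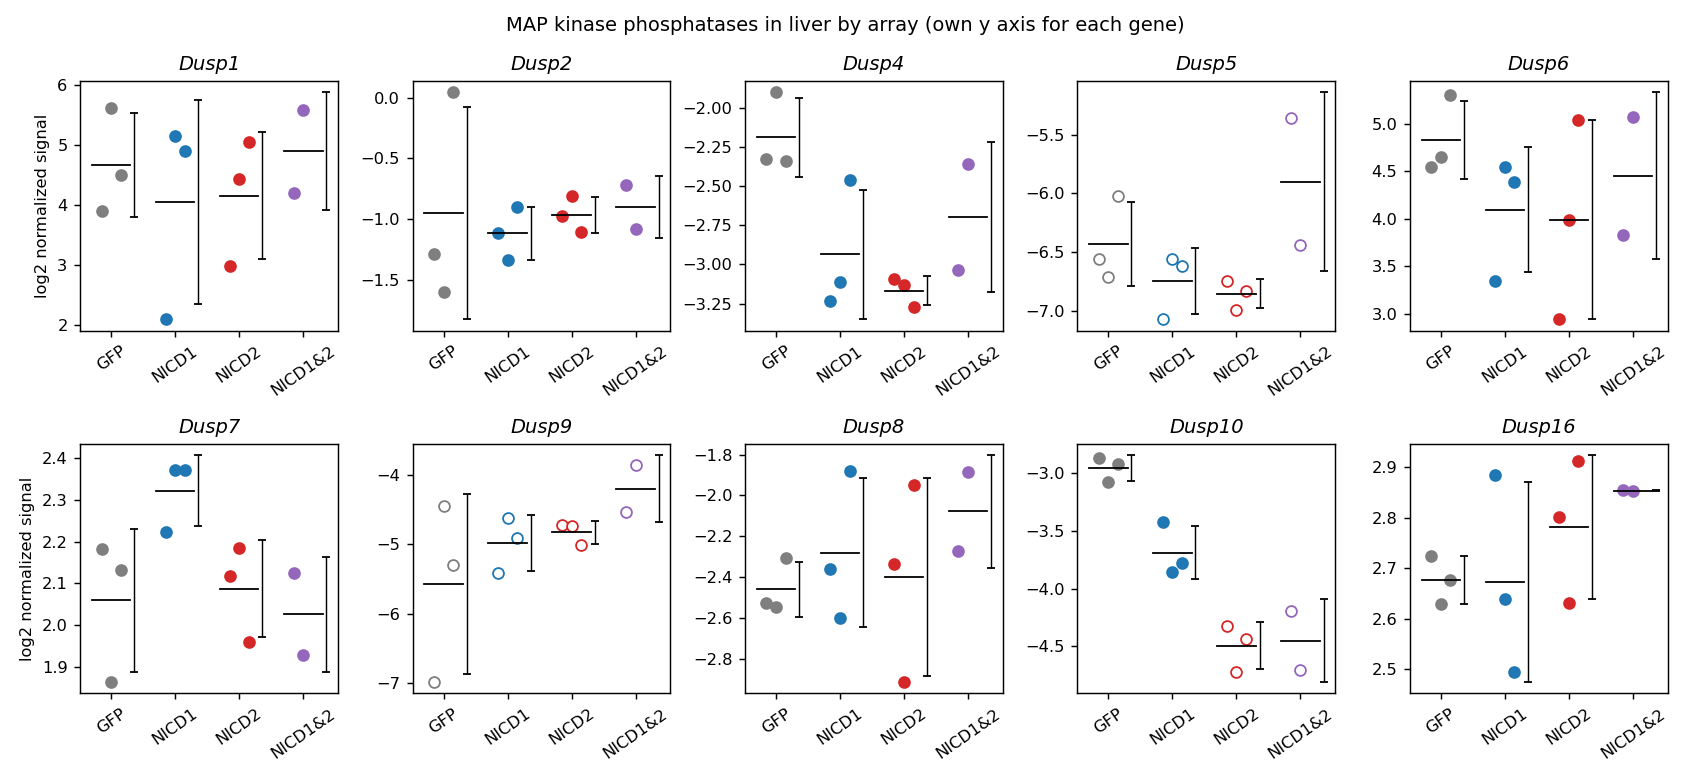
Log2 normalized signal of each phosphatase (y axis, own scale for each gene) by group (x axis), with 1 point per array, filled where the probe was well above background and open where it was not. The line is the group mean and the bar beside it the SD. Dusp10 falls in 3 tiers from about -2.95 in GFP to -4.50 in NICD2, the fall it was chosen for. Dusp1 and Dusp6 spread widely within groups.

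The 5 named genes with the pattern most like that of Dusp10 over the 11 arrays, out of 16632 compared, were Asb2 (Pearson r 0.95), AW549542 (0.93), Klhdc8a (0.92), Pde4b (0.91) and Nudt7 (0.91). The arrays share their group means, so these coefficients are a description. Asb2, a substrate adaptor of a ubiquitin ligase, had means of -3.06 in GFP, -3.69 in NICD1, -4.02 in NICD2 and -4.40 in NICD1&2, and was not well above background in NICD1&2. Pde4b, which breaks down cyclic AMP, had means of -0.24, -0.87, -1.35 and -1.20 in the same order and was well above background on all 11 arrays. Nudt7, a peroxisomal enzyme that hydrolyses coenzyme A, went from 6.06 in GFP to 5.79 in NICD1, 5.51 in NICD2 and 5.47 in NICD1&2. The order of the groups in these genes follows from how they were picked.

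**Figure D2:**
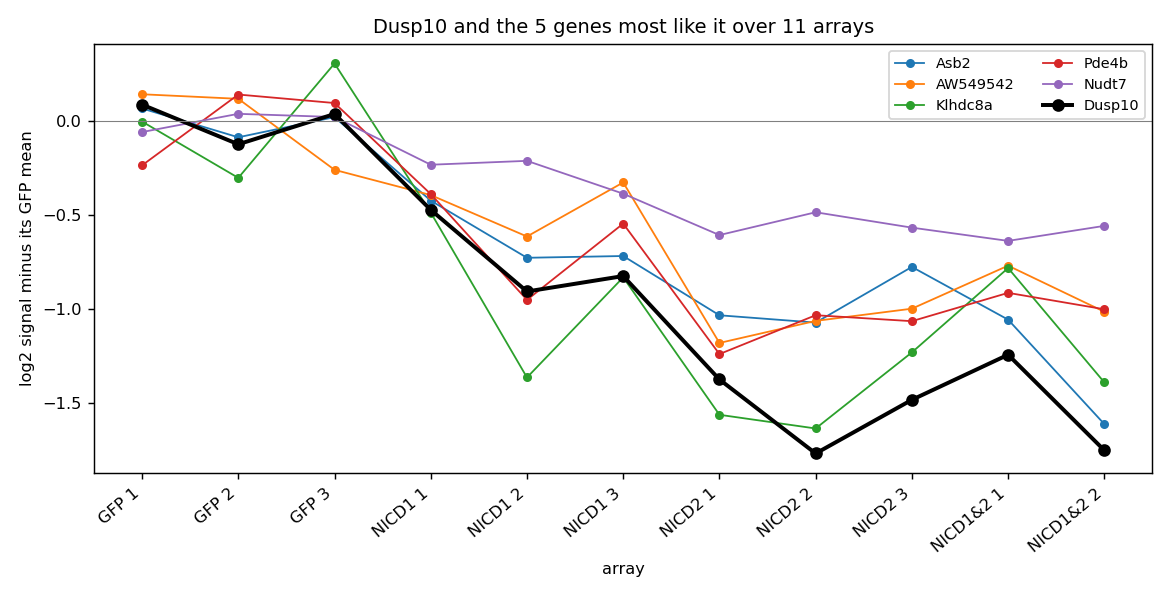
Log2 signal minus the gene's own GFP mean (y axis) on each of the 11 arrays (x axis) for Dusp10 (thick black line) and the 5 genes with the highest correlation with it. The group means of all 6 genes step down from GFP to NICD1 and again to the groups that received NICD2, as follows from how the 5 were picked.

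For the other enzymes that prefer JNK and p38 no comparison passed a threshold. Dusp16 was at 2.72, 2.63 and 2.68 in GFP, 2.88, 2.64 and 2.49 in NICD1, 2.80, 2.63 and 2.91 in NICD2, and 2.85 and 2.85 in NICD1&2. The groups overlapped except for NICD1&2, which lay above GFP by 0.18 (95% interval -0.13 to 0.48, adjusted p = 0.521 by limma), close to the median of all probes in that comparison (0.12). Dusp8 was at -2.53, -2.55 and -2.30 in GFP, -2.36, -2.60 and -1.88 in NICD1, -2.33, -2.91 and -1.95 in NICD2, and -2.27 and -1.88 in NICD1&2. It was 0.38 higher in NICD1&2 than in GFP without overlap (95% interval -0.28 to 1.04), but its second probe, dimmer and well above background on 9 arrays, put that difference at 0.99 and overlapped. Between NICD1&2 and GFP, groups did not overlap for 34.5% of all probes.

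Among the inducible nuclear enzymes, Dusp4 was also lower in NICD2. It was at -2.32, -1.90 and -2.34 in GFP, -3.23, -3.11 and -2.46 in NICD1, -3.10, -3.13 and -3.27 in NICD2, and -3.03 and -2.36 in NICD1&2, well above background on all 11 arrays. Every array of the NICD groups lay below every GFP array, although NICD1 3 and NICD1&2 2 came close to the GFP level. In these comparisons groups did not overlap for 12.4% of all probes in NICD1, 13.3% in NICD2 and 34.5% in NICD1&2. In NICD2 the difference was -0.98 (SE 0.24, 95% interval -1.53 to -0.43), a 1.97-fold decrease that passed the threshold of the study but not adjustment over all probes (adjusted p = 0.344 by limma, exact permutation p = 0.1, the smallest possible). It was -1.004 on slide 1 and -0.933 on slide 2, the latter from 1 array of each group. In NICD1 the difference was -0.75 (95% interval -1.30 to -0.20, adjusted p = 0.804), at 1.68-fold under the threshold. In NICD1&2 it was -0.51 (95% interval -1.12 to 0.10, adjusted p = 0.395), with -0.92 on slide 1 and -0.02 on slide 2.

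Both NICD1&2 arrays lay above all 3 NICD2 arrays (groups did not overlap for 25.3% of all probes there), but the difference of 0.47 passed no threshold (95% interval -0.14 to 1.08, adjusted p = 0.584 by limma). It was 0.08 on slide 1 and 0.91 on slide 2, and 0.13 without NICD1&2 2 and 0.81 without NICD1&2 1. If the vectors acted independently on the log2 scale, the differences of NICD1 and NICD2 from GFP would add up in NICD1&2. The departure of Dusp4 from that sum was 1.22 (95% interval 0.40 to 2.04), past the threshold of the study, as were 1 of the 8 tested members and 3.83% of all probes, and it did not pass adjustment (adjusted p = 0.642 by limma). It was 1.56 without NICD1&2 1 and 0.88 without NICD1&2 2. With normexp correction and quantile normalization together, the NICD2 difference of Dusp4 was -0.26 and the departure 0.29.

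Dusp1 and Dusp6 varied more between livers of 1 group than between groups. Dusp1, the classical stress-inducible phosphatase of JNK and p38, was at 3.89, 5.60 and 4.50 in GFP, 2.09, 5.15 and 4.90 in NICD1, 2.98, 4.42 and 5.05 in NICD2, and 4.20 and 5.59 in NICD1&2. Its pooled SD within groups was 1.22, larger than that of 99.4% of tested probes, so its differences from GFP (-0.62 in NICD1, -0.51 in NICD2 and 0.23 in NICD1&2) had wide intervals, as -2.63 to 1.38 in NICD1. Leaving out 1 array of the groups compared gave -1.17 to 0.36 in NICD1 (highest without NICD1 1), -0.96 to 0.07 in NICD2 (highest without NICD2 1) and -0.47 to 0.92 in NICD1&2 (without NICD1&2 2 and NICD1&2 1). Dusp6, an ERK phosphatase that is itself induced by ERK, was at 4.55, 4.65 and 5.30 in GFP, 3.34, 4.55 and 4.39 in NICD1, 2.95, 3.99 and 5.04 in NICD2, and 3.83 and 5.08 in NICD1&2. Its differences from GFP were -0.74 in NICD1 (95% interval -2.01 to 0.53), -0.84 in NICD2 (-2.11 to 0.43) and -0.38 in NICD1&2 (-1.80 to 1.04). With scaling to the 75th percentile of all probes, all arrays and no block, none passed a threshold. Scaled to a 75th percentile taken only from probes detected on every array, the NICD2 difference passed the threshold of the study. With the slide as a block the NICD1 difference was -1.12 and passed the threshold of the study (adjusted p = 0.737 by limma), and without NICD1 1 it was -0.36. The NICD2 difference was -0.88 and past that threshold with quantile normalization (adjusted p = 0.783 by limma), -0.32 without NICD2 1, and -1.37 and past that threshold without NICD2 3 (adjusted p = 0.875 by limma). The NICD1&2 difference was -0.57 with the slide as a block, -0.15 without GFP 3 and 0.24 without NICD1&2 1, and it was lowest without NICD1&2 2.

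The low livers were the same for both genes. The lowest array of Dusp1 and of Dusp6 was number 1 in all 4 groups, and NICD1 1 and NICD2 1 were the lowest of all. Number 1 always lay on slide 1, which also held GFP 2 and NICD2 2, at 5.60 and 4.42 for Dusp1 and at 4.65 and 3.99 for Dusp6. The immediate-early genes Fos, Jun, Egr1 and Atf3, transcription factor genes switched on within minutes of a stimulus, were also lowest on number 1 in every group. Fos was at -0.93, 1.53 and 0.85 in GFP, -3.46, 2.02 and 2.45 in NICD1, -2.44, 1.09 and 2.16 in NICD2, and -1.30 and 2.85 in NICD1&2. Jun ran from 1.84 on NICD1 1 and 2.54 on NICD2 1 to 5.95 on NICD2 3.

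Over the 11 arrays, Dusp1 correlated with Fos at Pearson r = 0.94 (permutation p = 2e-05, adjusted p = 0.00164 over 82 relations) and Spearman rho = 0.85 (permutation p = 0.00137, adjusted p = 0.0316). The permutations treated all arrays as exchangeable, without regard to group or replicate number, which limits these p-values. With group means removed, r was 0.97. Without the 2 arrays farthest from the median of Dusp1, NICD1 1 and NICD2 1, r was 0.83, and on the 6 arrays of slide 1 it was 0.94, while the 5 arrays of slide 2 were too few. Dusp6 was closest to Atf3, with r = 0.88 (permutation p = 0.00027, adjusted p = 0.0111), rho = 0.90 (permutation p = 0.00038, adjusted p = 0.0312), r = 0.84 without NICD2 1 and NICD1 1, and r = 0.81 on slide 1. Of 27 ERK, JNK and p38 effector genes, 6 passed adjustment of Pearson's r with Dusp1 and 6 with Dusp6, but on Spearman's rho 2 did with each (Fos and Myc with Dusp1, Atf3 and Ier3 with Dusp6). Without NICD1 1 and NICD2 1, r with Dusp1 went from 0.89 to 0.62 for Jun and from 0.87 to 0.55 for Egr1. An r over 0.7 was found for 7 of the 27 genes with Dusp1 and 7 with Dusp6, and for 1.64% and 1.57% of all other tested probes. Dusp1 and Dusp6 themselves correlated at r = 0.78 (permutation p = 0.0049, adjusted p = 0.0309) and rho = 0.75 (permutation p = 0.011, adjusted p = 0.129), the only one of 28 member pairs to pass on r, but r fell to 0.43 without NICD1 1 and NICD2 1, so that relation rests on those 2 livers. On slide 1 it was 0.79, and with group means removed it was also 0.79. Dusp4 and Dusp10 were not lowest on number 1 in all groups (2 and 0 groups). Dusp10 was instead highest on number 1 in every group, although below background in NICD2 and NICD1&2. With group means removed, its r was -0.81 with Dusp1 and -0.60 with Dusp6, which was not tested.

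**Figure D3:**
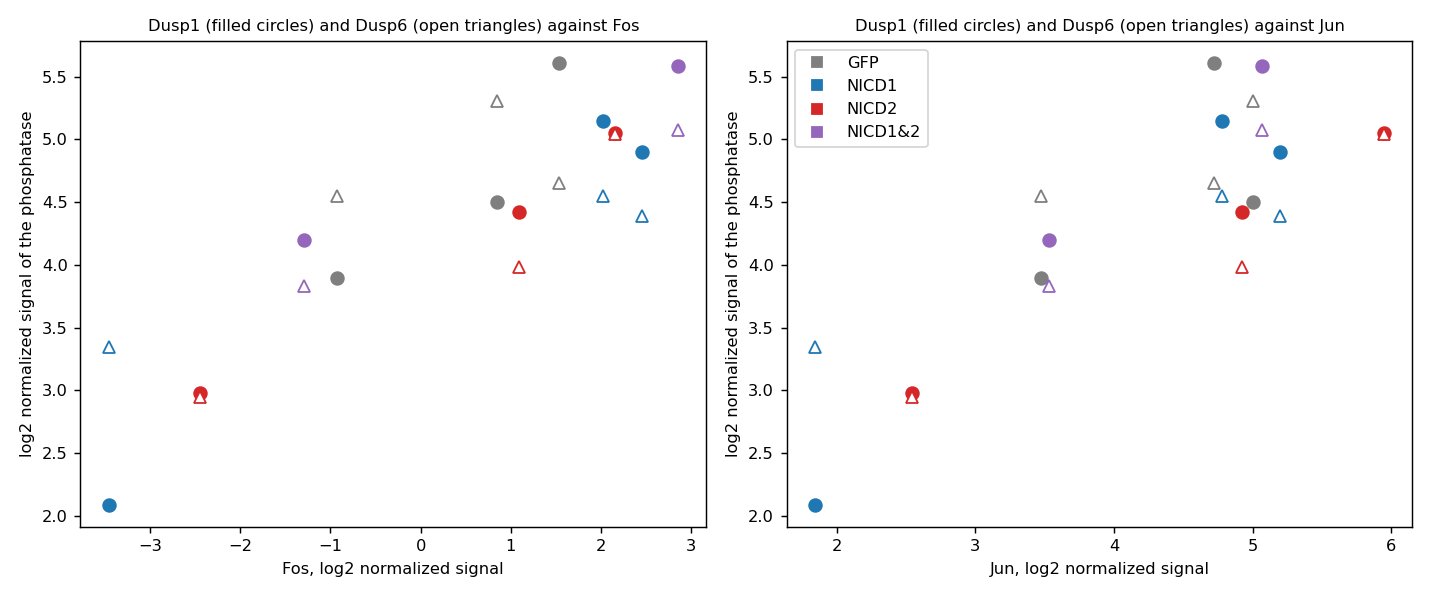
Log2 signal of Dusp1 (filled circles) and Dusp6 (open triangles) on the y axis against that of Fos (left) and Jun (right) on the x axis, 1 point per array, coloured by group. The lowest points of both phosphatases, from NICD1 1 and NICD2 1, lie at the lowest Fos and Jun.

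The promoter windows of this pair are shown because both genes were lowest on the same livers. The 250 bases before the start are given from RefSeq (GRCm38.p6), for Dusp1 at chr17:26508473-26508722 on the minus strand and for Dusp6 at chr10:99262981-99263230 on the plus strand, with the cyclic AMP response element (TGACGTCA) in capitals.
Dusp1: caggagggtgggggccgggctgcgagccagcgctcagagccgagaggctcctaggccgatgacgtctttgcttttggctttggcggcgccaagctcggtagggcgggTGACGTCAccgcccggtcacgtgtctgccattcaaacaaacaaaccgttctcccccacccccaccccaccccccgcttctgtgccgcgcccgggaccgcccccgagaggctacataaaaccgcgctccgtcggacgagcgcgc
Dusp6: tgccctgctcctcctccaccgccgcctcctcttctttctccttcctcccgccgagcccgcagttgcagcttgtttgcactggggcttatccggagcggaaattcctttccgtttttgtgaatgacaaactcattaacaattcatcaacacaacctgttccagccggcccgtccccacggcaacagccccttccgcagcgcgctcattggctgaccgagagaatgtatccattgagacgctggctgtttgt
The element occurs once in the Dusp1 window, 143 bases before the start, and in 1.56% of all windows on either strand. It also occurs in Dusp8, 107 and 63 bases before the start, whose correlation with Dusp1 over the arrays r = 0.20 (permutation p = 0.561, adjusted p = 0.794). The Dusp6 window holds neither this element nor the AP-1 site (TGACTCA, 4.45% of all windows), and no member window held the AP-1 site.

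In the remaining members no comparison passed a threshold. Dusp7, a cytoplasmic ERK phosphatase, was at 2.18, 1.87 and 2.13 in GFP, 2.22, 2.37 and 2.37 in NICD1, 2.12, 2.18 and 1.96 in NICD2, and 2.12 and 1.93 in NICD1&2. NICD1 lay above the other 3 groups without overlap, by 0.26 over GFP (95% interval -0.01 to 0.53, adjusted p = 0.902 by limma) and by 0.23 over NICD2 (groups did not overlap for 9.26% of all probes there), and NICD1&2 lay 0.29 below NICD1 (difference -0.29, adjusted p = 0.406). Groups did not overlap for 12.4% of all probes in NICD1 against GFP and 30.7% in NICD1&2 against NICD1. Its pooled SD of 0.13 was among the smaller ones, and a rise above 0.53 in NICD1 lies outside the interval. Dusp2, found mainly in blood cells, was at -1.29, -1.60 and 0.04 in GFP, and between -1.34 and -0.72 in all NICD livers, so that GFP 3 set the GFP mean. Its difference in NICD2 was -0.01 with all arrays, -0.34 without GFP 2 and 0.48 without GFP 3. Dusp5, an ERK phosphatase of the nucleus, ran from -7.07 to -5.36 and Dusp9, a cytoplasmic one, from -6.99 to -3.85, all below background, and nothing is compared for them.

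**Figure D4:**
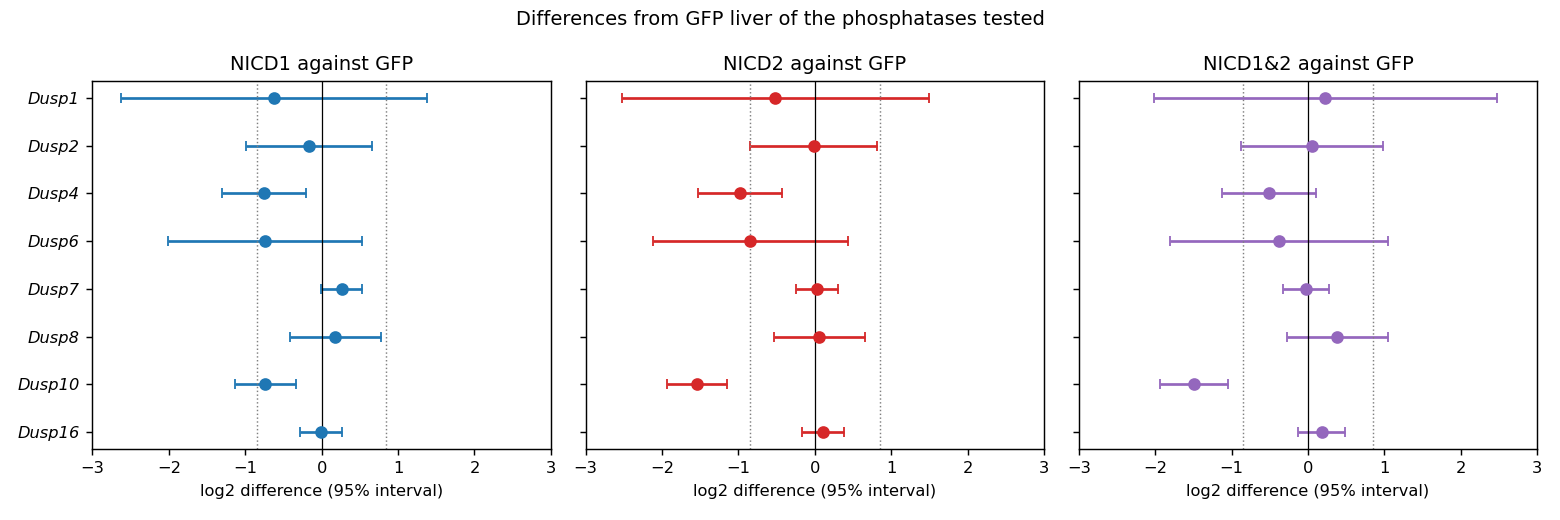
Log2 difference from GFP (x axis) of the 8 phosphatases tested (y axis) in NICD1, NICD2 and NICD1&2, with 95% intervals from limma; dotted lines mark 1.8-fold. Dusp10, whose NICD2 value chose it and is a description, lies at -0.74, -1.54 and -1.50, Dusp4 at -0.75, -0.98 and -0.51, and the intervals of Dusp1 and Dusp6 are the widest.

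Counted over the family, 0 of the 8 tested members passed the threshold of the study in NICD1, where 2.22% of all probes did, and 0 passed adjustment (0.00832% of probes), while Dusp4 had an unadjusted p under 0.05 (5.48% of probes), beside Dusp10 on the GFP arrays of its choice. In NICD2, Dusp4 passed beside Dusp10, which the choice put there, where 0.66% of probes passed lower, and none of the other members passed adjustment by limma (0.0527% of probes). In NICD1&2 only Dusp10 passed, on the GFP arrays of its choice, where 1.44% of probes passed lower and 0.0915% passed adjustment. The median difference of the tested members was -0.39 in NICD1, -0.26 in NICD2 and 0.01 in NICD1&2, against 0.01, 0.02 and 0.12 over all probes tested, and without Dusp10 it was -0.17, -0.01 and 0.05 over 7 members. Groups did not overlap for 3 members in NICD1 (12.4% of probes), 2 in NICD2 (13.3%) and 4 in NICD1&2 (34.5%), Dusp10 among them each time, on the arrays of its choice in NICD2 and on the GFP arrays of that choice in the others. NICD1 and NICD2 differed in no member at the threshold of the study (1.26% of probes), nor did NICD1&2 differ from NICD1 (2.7%) or from NICD2 (3.07%). Under other settings each of these last 3 counts was 0 or 1. The comparisons share arrays, and the counts are not independent.

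The substrates and upstream kinases were read on the same arrays. Of the MAP kinases themselves 9 of 10 were tested, with differences between -0.54 and 0.21 in NICD1, -0.25 and 0.30 in NICD2 and -0.31 and 0.35 in NICD1&2, and 0 passed the threshold of the study in any of these. All 7 MAP kinase kinases were tested and 0 passed. Of the 16 kinases and partners one step higher, Map3k6 alone passed, a stress-activated kinase upstream of JNK and p38. It was at -1.94 on average in GFP, -1.51 in NICD1, -0.99 in NICD2 and -0.69 in NICD1&2, above GFP by 0.95 in NICD2 (SE 0.18, adjusted p = 0.190 by limma) and by 1.25 in NICD1&2 (SE 0.20, adjusted p = 0.0787). Of all probes 1.32% passed as higher in NICD2 and 4.78% in NICD1&2.

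Of the other phosphatases that act on MAP kinases 7 of 8 were tested, and Ptpn7, a tyrosine phosphatase of blood cells, passed the threshold in NICD1 (at least 1.30-fold higher, adjusted p = 0.903 by limma) and NICD1&2 (at least 1.55-fold, adjusted p = 0.331), with 0 GFP arrays, 2 NICD1 arrays and 1 NICD1&2 array well above background, so that it reached the tests only through the groups in which it was higher. Of 16 other dual-specificity phosphatases 11 were tested and 0 passed in any group against GFP. Of the ERK effector and feedback genes 16 of 17 were tested, and Spry4, an inhibitor of the pathway induced by it, passed in NICD1 (difference -0.92, SE 0.30, adjusted p = 0.825 by limma). The JNK and p38 effectors, 11 of 12 tested, had 0 past the threshold. In NICD1, 1.73% of all probes passed as higher and 0.494% as lower.

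**Figure D5:**
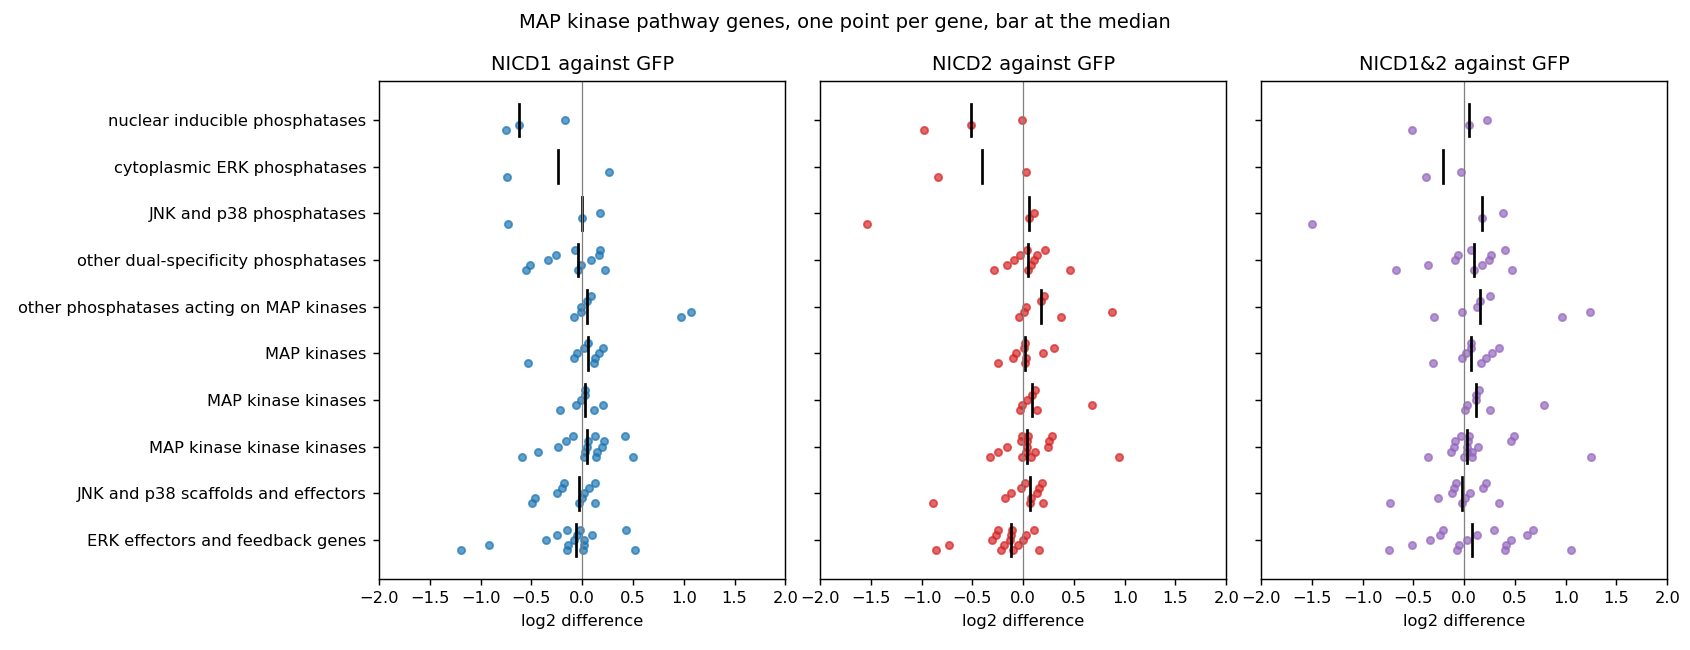
Log2 difference from GFP (x axis) of each tested gene in 10 lists of the MAP kinase pathway (y axis), 1 point per gene, with the bar at the list median. Dusp10 is the point near -1.5 among the JNK and p38 phosphatases in NICD2 and NICD1&2, and Map3k6 the point at 0.95 and 1.25 among the MAP kinase kinase kinases.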

How the data were processed

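RNA from 11 livers was hybridised to single-colour Agilent mouse arrays of 62976 spots. The kit and the array format differ between the study's methods and the labels. Per the file headers, the deposited intensity values are processed signals of Agilent Feature Extraction 11.5.1.1, background-subtracted by the scanner software, with flags, coded 0 or 1, for a spot well above background. The authors also deposited a table of log2 values scaled to the 75th percentile, whose columns differ from the values computed here by a constant under 0.01 per array and which served as an alternative. For each of 56605 probes, unflagged spots were averaged, and log2 intensity was taken relative to the array's 75th percentile.

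A probe was kept where 2 or more arrays had it well above background (36055 probes), and tests used limma 3.58.1 in R 4.3.3, with 1 mean per group over all 11 arrays and Benjamini-Hochberg adjustment over all tested probes. A call is an adjusted p under 0.05, and the threshold of the study (unadjusted P under 0.15, fold over 1.8) is counted beside it. The fit was tested on simulated data. A gene with several probes is read from the brightest one on average. Where no array of a group was well above background, the fold was taken as the bright group's mean against a limit and is given as at least. The limit is the mean, per array, of the higher of the probe's signal and the lowest signal well above background. Where the probe's own signal was the higher, the fold is not a strict minimum. Named genes are all members, the 5 genes most correlated with Dusp10, and genes of the pathway and Notch target lists past the threshold against GFP. The NK cell, neutrophil and endothelial marker lists, which also had genes past it, are not described. Fos, Jun, Egr1, Atf3 and other effectors named for a correlation, and Heyl, Krt19 and Cd4, were singled out after their values were seen. Correlations used 100000 permutations (scipy 1.17.1). The members and lists were chosen with earlier results of these data known. The labels do not say that the samples are separate animals, so p-values measure the spread between samples. Alternatives were the scaling, background correction, the deposited table, the filter, the samples fitted, an unmoderated model, slide and replicate number as blocks, a second probe and leaving out each array. The number of arrays limits the precision.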

Additional observations from a re-analysis of the deposited data

How the results depend on the processing

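Of 1217 recomputed differences (56 member differences under up to 22 alternatives), none of those called turned sign, 14 lost their call, all of them Dusp10 in NICD1&2 against GFP (adjusted p from 0.0526 to 0.318 by limma), and 61 that were not called turned sign. No adjusted p is given for Dusp10 in NICD2 against GFP, the value of the choice, so whether its call held is not stated. Counts of members past the threshold of the study moved as follows. With normexp and quantile normalization, NICD2 against GFP went from 2 to 0, NICD1&2 against GFP from 1 to 0 and the departure from additivity from 1 to 0, and probes past the threshold in NICD2 fell from 714 to 98. Restricted to probes well above background on all arrays, which keeps 7 members and not Dusp10, the counts were 1 and 0 against GFP in NICD2 and NICD1&2. With no filter, which brings in Dusp5 and Dusp9, they were 2 in NICD1&2 against GFP, 1 in NICD1&2 against NICD1, 1 in NICD1&2 against NICD2 and 2 for the departure. Quantile normalization gave 1 in NICD1&2 against NICD1, Dusp10, and 3 in NICD2 against GFP, with Dusp6, as did a 75th percentile taken only from probes detected on every array. With the slide as a block there was 1 in NICD1 against GFP (Dusp6, difference -1.12), 1 in NICD1 against NICD2 (Dusp10) and 2 for the departure. Leaving out 1 array gave 0 to 1 in NICD1 against GFP, 1 to 3 in NICD2 against GFP (1 without GFP 2, where Dusp4 was under the fold, and 3 without NICD2 3, with Dusp6), 0 to 1 in NICD1 against NICD2, in NICD1&2 against NICD1 and in NICD1&2 against NICD2, and 1 to 2 for the departure.

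Samples with the same number did not deviate together (r from -0.41 to 0.17 over 15 pairs, 6 above 0.1), so the numbers are not taken to pair them, although Dusp1 and Dusp6 were lowest on number 1 in all 4 groups. With the replicate number as a block, the counts were 1 in NICD1&2 against NICD1, 1 in NICD1&2 against NICD2 (Dusp1 in both, adjusted p = 0.483 and 0.606 by limma) and 3 for the departure, and 0, 2 and 1 against GFP in NICD1, NICD2 and NICD1&2.

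Quantile normalization moved the median of all probes in NICD1&2 against GFP from 0.12 to 0.01, and the share of probes past the threshold that were higher from 76.9% to 47.4%. In NICD1 that share moved from 77.8% to 62.3%. The level of Dusp10 in the groups with NICD2 is limited by signal over background, and so are those of Dusp5 and Dusp9. An additivity value with only the 2 groups compared could not be fitted.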
